A study of Rattus norvegicus with 24 samples.

Results

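The response of each gene to dietary salt restriction was compared between the inner medulla of the rat kidney and the ventricle of the heart. The quantity tested was a difference of differences: the log2 change from high to low salt in kidney minus the same change in heart, so that a positive value marks a response that was higher in kidney. It used 16 of the 24 libraries of the series, 4 for each tissue and diet, and 19408 of the 36856 genes in the deposited tables had enough counts to be tested. The response was higher in kidney for 73 genes (0.376% of those tested) and lower in kidney for 88 genes (0.453%). Among them were the transcription factors Zbtb16 and Nfat5, the epithelial Na channel subunit Scnn1a and the lymphotoxin gene Ltb on the higher side. On the lower side were aldose reductase (Akr1b1), the oxidant-response genes Srxn1 and Me1 and the autophagy kinase Ulk1. The calls depended on single libraries: 23 remained without heart high salt replicate 2, which held kidney transcripts. In 16 fits that each left out 1 library, Ltb passed in 3 and Scnn1a in 13, and the others named here passed in all. Without a batch term 14 calls remained.

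Per the labels, the animals were Sprague-Dawley rats of 120 to 200 g that ate a synthetic diet for 7 days, and each group had 4 rats. The low-salt diet held 0.01 to 0.02% Na and the other diet 0.4% Na, which the protocol names a control diet and the sample titles call high salt. Kidney tissue was the papilla of one kidney and heart tissue a piece of ventricle, each taken as bulk tissue, and whether a rat gave both tissues is not stated. Batches are those of the labels: replicates 1 and 2 of each group are batch 1, and replicates 3 and 4 are batch 2. No group used here received aldosterone, and no genetic change is stated for any of them. In bulk tissue, fewer cells of a type and less RNA per cell cannot be told apart.

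When Na intake is low, the renin-angiotensin system and aldosterone act on the distal nephron and the collecting duct, where the epithelial Na channel takes up Na. The inner medulla also lies in a strongly salty and urea-rich interstitium, and its cells hold organic osmolytes, such as the sorbitol that aldose reductase makes, under the control of the tonicity factor NFAT5. The ventricle has neither function, and in its cardiomyocytes a higher load is known to raise stretch-induced and fetal genes such as Ankrd1 and Nppa.

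Library totals ran from 34013000 to 38318000 counts for kidney on high salt, from 30830000 to 32755000 for kidney on low salt, from 27162000 to 30421000 for heart on high salt and from 26300000 to 32567000 for heart on low salt. Levels are given as normalised CPM, that is, counts relative to TMM-scaled library totals, on which scale 1 CPM stood for 18 to 52 counts in a library. Several libraries departed from their labels or from each other. The labels describe female rats, but Xist, which female cells transcribe from the inactive X chromosome, did not exceed 0.0661 CPM in any of the 16 libraries, and 4 genes of the Y chromosome (Uty, Kdm5d, Ddx3y and Eif2s3y) summed to 150 to 249 CPM. Summed ventricular cardiomyocyte markers were 118000 to 145000 CPM in heart and 0.846 to 3.91 CPM in kidney. Summed principal cell markers were 6330 to 9360 CPM in kidney, so the markers told kidney from heart. The kidney libraries also held markers of other nephron segments. Thick ascending limb markers summed to 1130 to 2000 CPM on high salt and 1330 to 2560 CPM on low salt. Proximal tubule markers in kidney summed to 84.1 to 534 CPM on high salt and 144 to 840 CPM on low salt. Their part in the kidney responses was not tested. Kidney transcripts were also present in heart libraries of batch 1. Heart high salt replicate 2 had 57.4 CPM of principal cell markers against 1.79 to 6.39 CPM in the other 7 heart libraries, and 149 CPM of thick ascending limb markers against 2.03 to 17.5 CPM. Proximal tubule markers stood at 47.2 to 187 CPM in the 4 batch 1 heart libraries and at 0.441 to 1.68 CPM in the 4 of batch 2. Summed erythroid markers ranged from 3240 to 80300 CPM over the heart libraries.

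**Figure D1:**
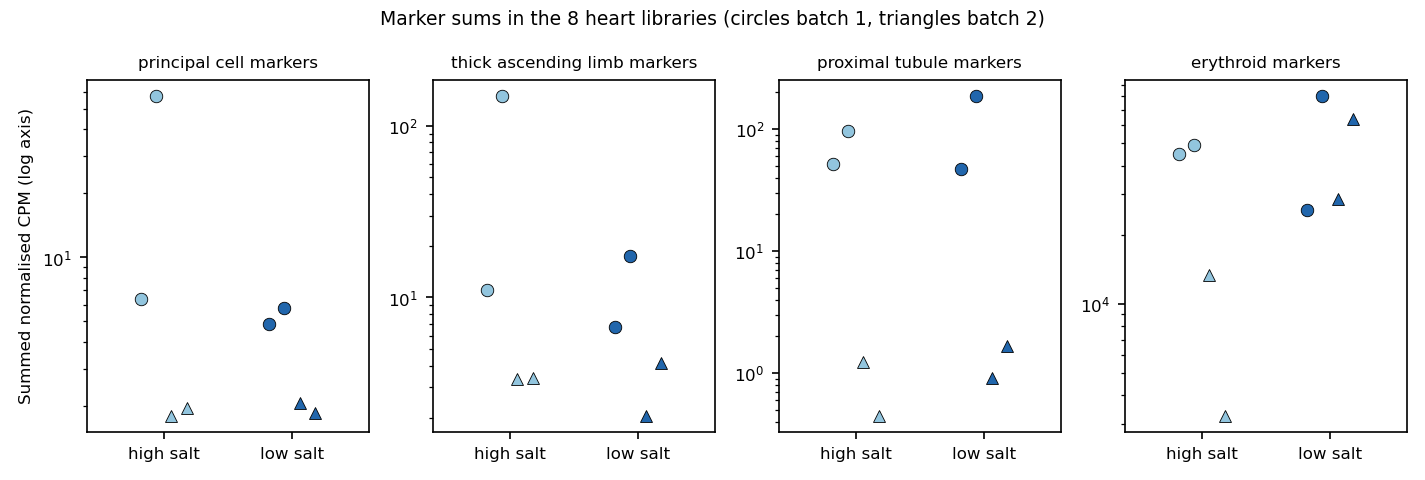
Summed normalised CPM (log axis) of principal cell, thick ascending limb, proximal tubule and erythroid markers in the 8 heart libraries, by diet, with circles for batch 1 and triangles for batch 2. Heart high salt replicate 2 is the highest library for the first pair of lists, and all 4 batch 1 libraries lie above batch 2 for proximal tubule markers.

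A difference was called at an adjusted p under 0.05 (edgeR's quasi-likelihood test with Benjamini-Hochberg adjustment over all genes), and the 161 calls made up 0.83% of the 19408 genes tested. The 73 higher genes differed by a median of 0.84 log2 units and the 88 lower genes by a median of -0.64, against a median of 0.02 over all genes tested. Of the 161 genes, 153 had a mean level of 1 CPM or more in both tissues. The fitted responses had opposite signs in the tissues for 145 of the 161 genes, where 48.2% of all genes tested had opposite signs. The kidney change was the larger in size for 128 of the 161, against 52.1% of all genes tested. By a split made after the values were seen, the kidney change was at least 2 times the heart change for 100 genes, the heart change was at least 2 times the kidney change for 16, and 45 lay between. In kidney the 4 low-salt libraries did not overlap the 4 high-salt libraries for 129 of the 161 genes, where the share over all genes tested was 10.8%, and in heart for 39 of 161, where it was 4.15%. The test selects such genes, so these counts describe the 161 and support nothing further. All 161 differences had the same sign in both batches, which the same selection favours. A fit of batch 1 alone called 1 gene and a fit of batch 2 alone called 7. A gene just inside the threshold had an adjusted p of 0.0497 and one just outside it, Birc3, had 0.0501.

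**Figure D2:**
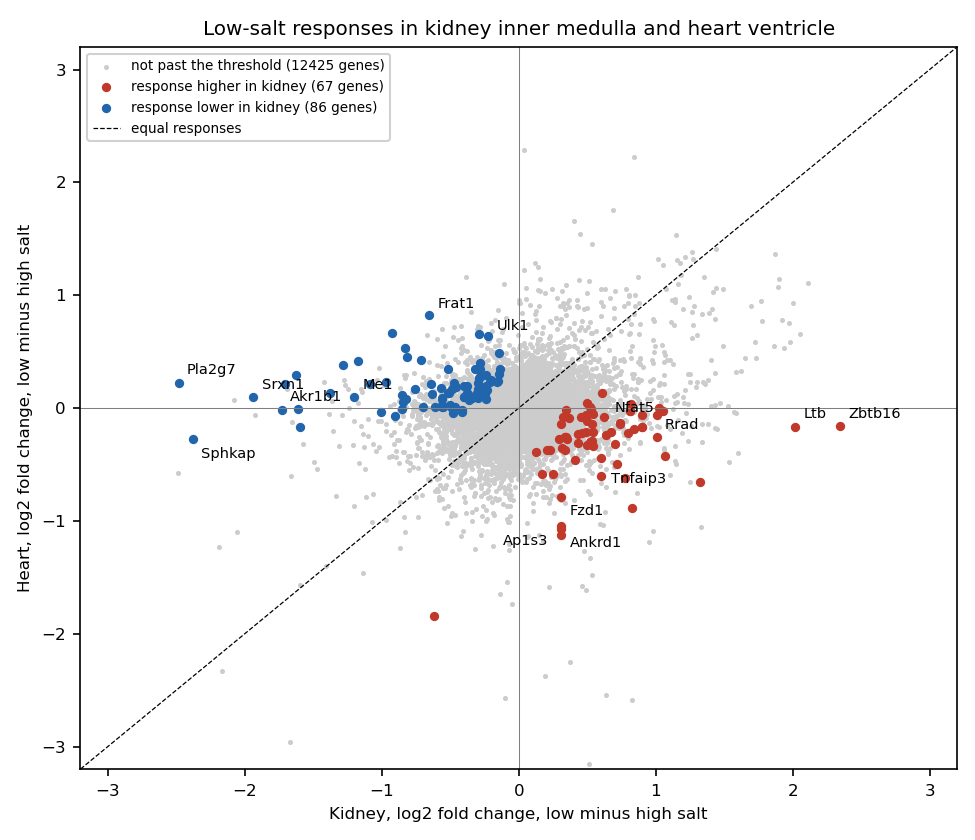
Low-salt response in heart (y axis, log2 fold change, low minus high salt) against that in kidney (x axis, same unit) for genes with a mean of 1 CPM or more in both tissues; 12570 genes are drawn and 8 lie outside the axes. Genes whose responses differed past the threshold (67 higher in kidney, red; 86 lower in kidney, blue) lie away from the dashed line of equal responses, most of them along the horizontal line of no heart response.

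Across the 12578 genes at 1 CPM or more in both tissues, the kidney and heart responses were weakly related (Spearman 0.09, Pearson 0.22), which is a description across genes that share libraries. The median size of the change was 0.13 log2 units in kidney and 0.1 in heart, beside a median standard error of 0.15 for the difference of responses. Changes within a tissue are given from the same model with their standard errors and carry no test of their own. The sign counts of the gene lists below stand beside the signs over all genes tested. Of the 19408 genes, 52.8% had a positive difference, 9952 a positive kidney response and 9296 a positive heart response. Counts of called list members stand beside 0.376% higher and 0.453% lower calls over all genes tested. The lists were chosen with earlier results of these data known.

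Among genes that corticosteroids induce, Zbtb16, a zinc finger transcription factor, had the clearest difference. In kidney it stood at 6.8, 7.7, 5.2 and 8.75 CPM on high salt and at 38.7, 43.2, 33.5 and 30.5 CPM on low salt. In heart it stood at 49.4, 51.7, 109 and 50.4 CPM on high salt and at 61.2, 60.4, 54.8 and 52.2 CPM on low salt. The kidney groups were far apart, all 4 low-salt libraries being higher, and the heart groups overlapped. The response was 2.35 ± 0.24 (log2 ± SE) in kidney and -0.16 ± 0.23 in heart, and the difference was 2.51 ± 0.33 (95% interval 1.81 to 3.21, adjusted p = 0.0103), a 5.69-fold gap. It was 2.24 within batch 1 alone and 2.78 within batch 2 alone.

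No other member of the 21 corticosteroid-induced genes tested passed: 1 was higher, 0 were lower, 12 had a positive difference, and the list median was 0.2. Per1, a clock gene that aldosterone induces, had a response of 1.15 ± 0.33 in kidney and 1.53 ± 0.35 in heart, so the point estimates had one direction and the difference of -0.38 ± 0.48 had an interval from -1.41 to 0.64. Its kidney levels were 23.5, 51, 37.4 and 39.6 CPM on high salt and 105, 64.9, 71.2 and 94.4 CPM on low salt, and its heart levels were 12, 33.4, 13.4 and 16.8 CPM on high salt and 74.2, 33, 43.4 and 64.3 CPM on low salt. The kidney groups did not overlap, and in heart only low salt replicate 2 fell within the high-salt range. Fkbp5, a co-chaperone of steroid receptors, had a kidney response of 0.7 ± 0.13 and a heart response of 0 ± 0.13, and its difference of 0.69 ± 0.18 missed the threshold (adjusted p = 0.0987). Its heart levels were 32.1, 33.3, 30.2 and 30 CPM on high salt and 42.6, 38.2, 25 and 23.8 CPM on low salt. The low-salt heart libraries were thus higher in batch 1 and lower in batch 2, and the difference was 0.38 within batch 1 alone and 1.03 within batch 2 alone. Sgk1, the kinase that keeps the Na channel at the membrane, had 0.57 ± 0.21 in kidney and 0.09 ± 0.22 in heart, with an interval of the difference from -0.18 to 1.14 (adjusted p = 0.527). Tsc22d3, the glucocorticoid-induced leucine zipper, had a difference of -0.21 ± 0.23 (adjusted p = 0.738). The list's responses had positive signs in both tissues for most members, 19 of 21 in kidney and 17 of 21 in heart, with medians of 0.45 and 0.25.

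Scnn1a is the alpha subunit of ENaC, the epithelial Na channel of the collecting duct. Its kidney levels were 24.1, 14.5, 19.5 and 15.2 CPM on high salt and 181, 110, 76.6 and 112 CPM on low salt. Its heart levels were 0.406, 1.23, 0.414 and 0.589 CPM on high salt and 0.714, 0.504, 0.207 and 0.0909 CPM on low salt. Every low-salt kidney library was above every high-salt one, while the heart groups overlapped at about the level of 1 CPM or below. The kidney response was 2.68 ± 0.24, the heart response -0.87 ± 0.55, and the difference 3.55 ± 0.6 (adjusted p = 0.0231). The highest heart value was that of heart high salt replicate 2, the library with the most kidney transcripts; without it the difference was 3.21 ± 0.72 and the adjusted p 0.0953. The call was also lost, at 0.0518 each, without heart high salt replicate 3 and without heart low salt replicate 4.

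The other channel subunits showed where heart levels were too low to compare responses. Scnn1b, the beta subunit, had kidney means of 27.4 ± 3.45 CPM (SD, n = 4) on high salt and 51.4 ± 14.7 CPM on low salt, without overlap, and 0 CPM in 5 of the 8 heart libraries. Scnn1g, the gamma subunit, had kidney means of 44.8 ± 3.63 and 65.5 ± 12 CPM, also without overlap, and 0 CPM in 4 heart libraries. In heart high salt replicate 2 the pair stood at 0.833 and 1.18 CPM, above the other heart libraries, and without that library the difference for Scnn1g changed sign from 3.08 ± 1.09 to -0.37 ± 0.97. Neither passed (adjusted p = 0.176 and 0.223). Hsd11b2, which inactivates corticosterone and so keeps it off the mineralocorticoid receptor, had 0.046 to 8.59 CPM in heart, the highest again in heart high salt replicate 2, and its difference went from 3.18 ± 1.06 with all libraries to 0.62 ± 0.8 without it.

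Of the 29 tested genes for Na, K and Cl transport in the distal nephron, 1 was higher and 0 were lower, 23 had a positive difference and the median was 0.49. Without heart high salt replicate 2 the median was 0.19 and no member passed. The part of the kidney transcripts in that library in the list's values was not tested further. Klhl3, the adaptor that marks WNK kinases for degradation, had kidney levels of 15.6, 18.3, 15.8 and 22.2 CPM on high salt and 39.7, 32.6, 26.6 and 29.5 CPM on low salt. Its heart levels were 7.95 to 10.7 CPM on high salt and 8.3 to 10.7 CPM on low salt. The kidney groups did not overlap and the heart groups did, and the difference of 0.87 ± 0.22 missed the threshold (adjusted p = 0.0782). Nr3c2, the mineralocorticoid receptor, had a response of 0.11 ± 0.11 in each tissue, and the interval of the difference ran from -0.34 to 0.34.

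**Figure D3:**
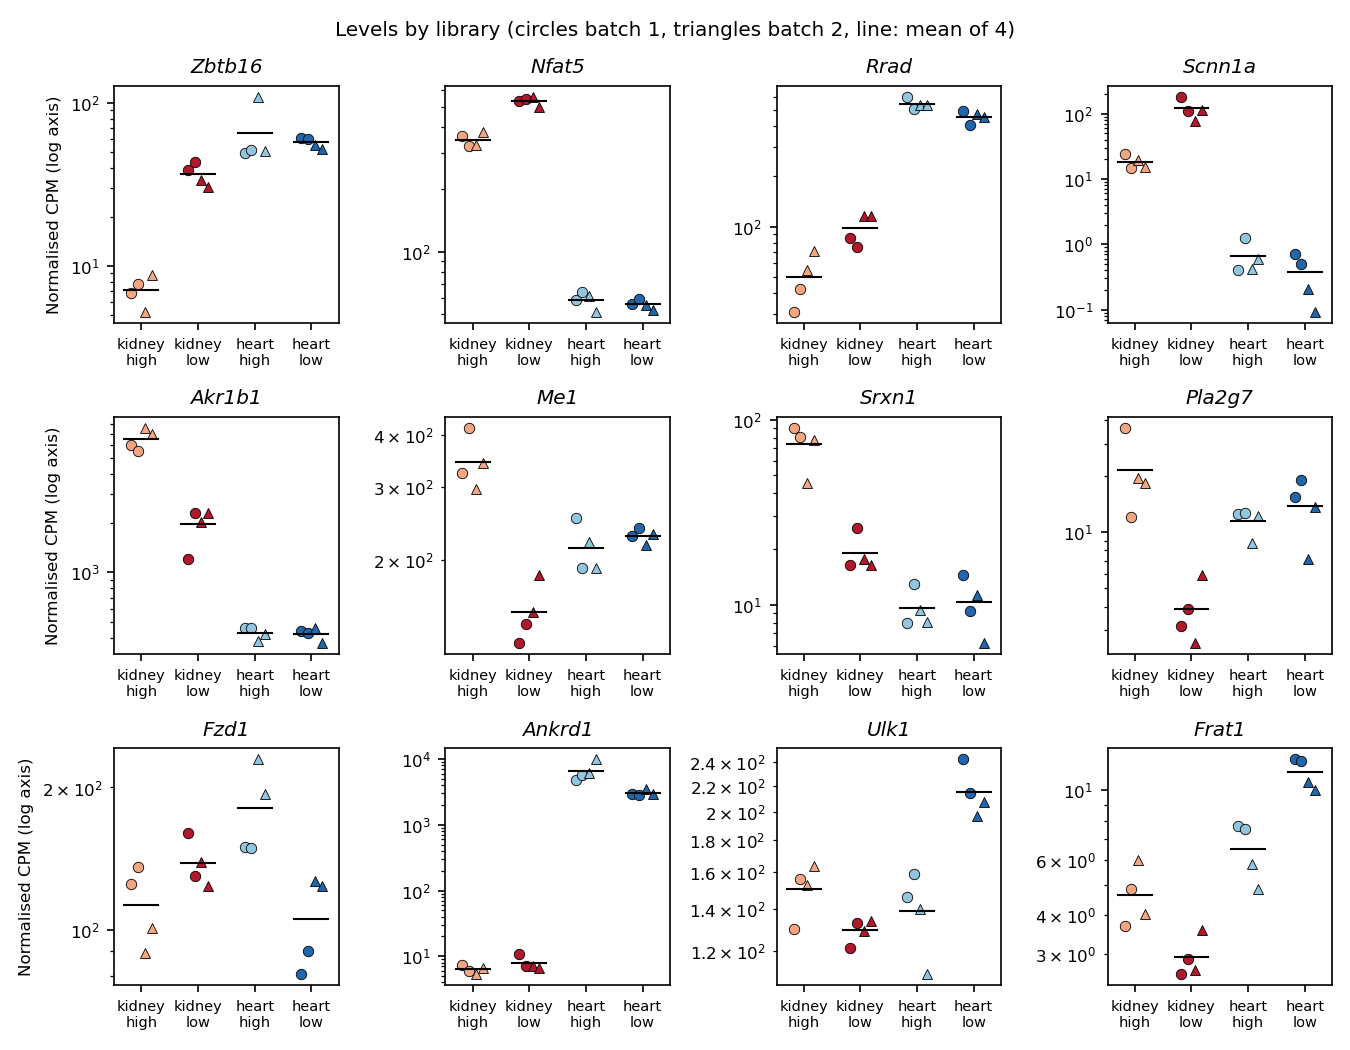
Normalised CPM (log axis) in each of the 16 libraries for 12 genes whose responses differed past the threshold, with circles for batch 1, triangles for batch 2 and a line at the mean of 4. The kidney groups separate for Zbtb16, Nfat5, Rrad, Scnn1a, Akr1b1, Me1, Srxn1, Pla2g7 and Frat1, and the heart groups for Rrad, Fzd1, Ankrd1, Ulk1 and Frat1.

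In the osmolyte and tonicity list, members differed in opposite directions. Nfat5, the transcription factor that hypertonicity activates, had kidney levels of 361, 322, 329 and 379 CPM on high salt and 533, 547, 559 and 499 CPM on low salt. Heart libraries had 51.1 to 64.3 CPM on high salt and 52.6 to 58.9 CPM on low salt. All kidney low-salt libraries were higher and the heart groups overlapped, with a difference of 0.7 ± 0.11 (adjusted p = 0.0172).

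Akr1b1, aldose reductase, which makes sorbitol and is a known NFAT5 target, differed the other way. Its kidney levels were 5960, 5480, 7600 and 7000 CPM on high salt and 1210, 2300, 2020 and 2310 CPM on low salt. In heart they were 458, 458, 380 and 420 CPM on high salt and 441, 428, 456 and 370 CPM on low salt. The low-salt kidney libraries were all lower by a wide margin, and the heart means were 429 ± 37 and 424 ± 37.7 CPM (SD, n = 4). The kidney response was -1.73 ± 0.15, the heart response -0.01 ± 0.15, and the difference -1.71 ± 0.21 (adjusted p = 0.0103), or 3.28-fold. Whether reads were shared among members of the aldose reductase family was not tested.

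Slc6a6, the taurine transporter, was the third member of the 12 that passed, with a response of 0.78 ± 0.19 in kidney, -0.62 ± 0.19 in heart and a difference of 1.4 ± 0.26 (adjusted p = 0.0332); it lies outside the rule for named genes. Slc6a6 passed in 6 of the 16 fits that left out 1 library, and without heart high salt replicate 2 its difference was 1.36 ± 0.28 (adjusted p = 0.08). Hspa4l, a chaperone induced by osmotic stress, had -1.35 ± 0.2 in kidney and -0.2 ± 0.2 in heart (difference -1.15 ± 0.29, adjusted p = 0.0818). In all, 2 members were higher (1 without heart high salt replicate 2), 1 was lower, 5 had a positive difference and the median was -0.27. Slc14a2, which carries urea out of the collecting duct, had kidney levels of 1100, 1300, 1300 and 1770 CPM on high salt and 653, 744, 828 and 901 CPM on low salt. The low-salt libraries were all lower, but heart levels of 0.227 to 3.42 CPM left its difference at 0.99 ± 0.5 (adjusted p = 0.401), and it was 0.2 ± 0.36 without heart high salt replicate 2. None of the 12 water and urea transport genes passed in either direction; their median of 0.93 was 0.04 without that library.

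Genes that the transcription factor NRF2 controls had lower responses in kidney for 3 of 16 members, where 0.453% of all genes tested were lower. Srxn1, which repairs oxidised peroxiredoxins, had kidney levels of 90.3, 80.1, 45.4 and 78 CPM on high salt and 16.3, 25.9, 17.6 and 16.4 CPM on low salt. In heart it had 7.97, 12.9, 9.29 and 8.1 CPM on high salt and 14.5, 9.27, 11.3 and 6.18 CPM on low salt. The kidney groups did not overlap, the heart groups did, and the difference was -2.03 ± 0.33 (adjusted p = 0.0228), or 4.09-fold. Me1, the cytosolic malic enzyme that makes NADPH, had kidney levels of 323, 416, 297 and 342 CPM on high salt and 126, 140, 150 and 184 CPM on low salt. Its heart levels were 252, 191, 221 and 191 CPM on high salt and 228, 239, 217 and 231 CPM on low salt. Again the kidney groups alone were apart, with a difference of -1.3 ± 0.18 (adjusted p = 0.0129). Nqo1, the quinone reductase, is outside the rule for named genes and had -1.7 ± 0.28 in kidney and 0.21 ± 0.28 in heart (difference -1.91 ± 0.39, adjusted p = 0.0449). Nqo1 passed in 2 of the 16 fits that left out 1 library; without heart high salt replicate 2 its difference was -1.83 ± 0.42 (adjusted p = 0.0966), and 2 members of the list were lower. In the list, 0 members were higher, 6 had a positive difference and the median was -0.39. The subunits of glutamate-cysteine ligase, Gclc and Gclm, had differences of 0.29 ± 0.68 and 0.06 ± 0.4, and haem oxygenase, Hmox1, had -1.25 ± 0.43 (adjusted p = 0.197).

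The antioxidant response element is the sequence that NRF2 binds, and Me1 is shown because it passed and its start carries a match. Promoter windows (250 bases before to 50 bases after the start, RefSeq, build GRCr8) were available for 74 of the 88 lower genes and 50 of the 73 higher genes. The element was searched as TGACNNNGC on both strands. It was present in 25.7% of the lower windows (19 genes) and 20.0% of the higher windows (10 genes). The other called members of the NRF2 list, Srxn1 and Nqo1, gave no match, for lack of a window or of the element. Of all 27457 promoter windows 12.2% held it, and of the windows of tested genes 13.7%. A match describes letters and does not show a bound site. The stretch of Me1 lies at chr8:96540375-96540444 on the minus strand, positions -200 to -131 from the start, and capitals mark the match, whose first 7 letters also spell the AP-1 element TGACTCA.
Me1: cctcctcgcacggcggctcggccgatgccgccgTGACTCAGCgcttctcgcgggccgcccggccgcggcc

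Inflammatory genes that NF-kB controls had higher responses in kidney for 3 of 16 members, Ltb, Tnfaip3 and Relb, and lower ones for 0. Over all genes tested, 0.376% were higher and 0.453% lower. Without heart high salt replicate 2, 1 member of the list was higher and 0 were lower. Ltb, lymphotoxin beta, a membrane ligand of the TNF family, had kidney levels of 4.92, 4.58, 5.16 and 8.66 CPM on high salt and 31.3, 24.3, 25.3 and 13.6 CPM on low salt. Its heart levels were 3.05, 1.32, 2.25 and 2.6 CPM on high salt and 1.87, 2.52, 2.03 and 1.77 CPM on low salt. The kidney groups did not overlap, although high salt replicate 4 and low salt replicate 4 lay closest, and the heart groups did. The difference was 2.18 ± 0.44 (adjusted p = 0.0403), or 4.55-fold. Tnfrsf14, a receptor of the TNF family outside the list, had 4.61, 3.67, 3.38 and 4.36 CPM in kidney on high salt and 11.8, 13, 9 and 7.21 CPM on low salt. In heart it had 2.03, 1.62, 1.7 and 1.82 CPM on high salt and 1.04, 1.96, 0.58 and 1.09 CPM on low salt. All low-salt kidney libraries were higher, and in heart 3 of 4 low-salt libraries were lower than every high-salt one; the difference was 1.98 ± 0.36 (adjusted p = 0.0296).

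Tnfaip3, or A20, an enzyme that restrains NF-kB signalling, differed in both tissues. Its kidney levels were 6.61, 7.55, 10.2 and 6.82 CPM on high salt and 12.2, 8.96, 14.4 and 11.6 CPM on low salt, and its heart levels were 14.1, 16.7, 18.8 and 20.7 CPM on high salt and 9.51, 11.5, 14.4 and 10.6 CPM on low salt. The groups overlapped in each tissue by 1 library, with responses of 0.6 ± 0.15 in kidney and -0.61 ± 0.16 in heart and a difference of 1.2 ± 0.22 (adjusted p = 0.0296). Relb, an NF-kB subunit of the noncanonical pathway, had 8.97 to 10.2 CPM in kidney on high salt and 14.3 to 23.7 CPM on low salt, without overlap, and 16.2 to 22 and 15.7 to 18.2 CPM in heart (difference 1.07 ± 0.2, adjusted p = 0.0297). Birc3, an inhibitor of apoptosis that NF-kB induces, lay just outside the threshold at 1.64 ± 0.35. The median of the list was 0.7 with 12 positive differences, and Ccl2, a monocyte chemokine, went the other way in kidney (-2.49 ± 0.48) with a difference of -1.91 ± 0.75 (adjusted p = 0.253). Leaving out 1 library at a time, Ltb passed in 3 of 16 fits, Tnfrsf14 in 8, Tnfaip3 in 8 and Relb in 7, with adjusted p-values up to 0.0883, 0.0647, 0.08 and 0.0712. Summed macrophage and leukocyte markers were 108 to 198 CPM in kidney on high salt and 116 to 162 CPM on low salt, and 808 to 958 and 924 to 969 CPM in heart; their part in these differences was not tested.

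Tnfaip3 and Ltb are shown because both passed and both carry the NF-kB consensus close to the start. The consensus, searched on both strands, was present in 12.0% of the windows of the higher genes (6 of 50) and 4.05% of those of the lower genes (3 of 74). Relb and Birc3 gave no match, for lack of a window or of the consensus. Of all promoter windows 4.16% held it, and of the windows of tested genes 4.82%. Capitals mark the matches. The Tnfaip3 stretch is chr1:15544010-15544079, minus strand, positions -100 to -31, with 2 matches, the first of which overlaps TGGAAA, the core of the tonicity element. The Ltb stretch is chr20:3634055-3634124, minus strand, positions -70 to -1, with 1 match.
Tnfaip3: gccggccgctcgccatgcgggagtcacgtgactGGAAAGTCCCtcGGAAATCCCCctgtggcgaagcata
Ltb: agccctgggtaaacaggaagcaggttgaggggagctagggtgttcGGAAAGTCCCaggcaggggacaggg

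The other motifs were at or near their share over all promoters or over tested genes. TGGAAA was in 18.0% of higher and 20.3% of lower windows, against 22.4% of all and 18.0% of those of tested genes. The sterol regulatory element TCACNCCAC was in 2.0% and 1.35%, against 1.13% of all and 1.18% of those of tested genes. The corticosteroid receptor element (ACA and TGT spaced by 3 bases, with G and C around them) was in 0 of 50 higher windows and 1 of 74 lower windows. Its share was 0.422% of all windows and 0.32% of those of tested genes. The searches for the antioxidant, NF-kB and sterol elements were added after the results were seen. Of the 28 named genes past the threshold, 18 had a window.

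A pair of genes of platelet-activating factor, an inflammatory lipid mediator, had lower responses in kidney. Pla2g7, the acetylhydrolase that degrades it, had kidney levels of 36.5, 12.1, 19.7 and 18.5 CPM on high salt and 3.13, 3.86, 2.54 and 5.91 CPM on low salt. The heart had 12.5, 12.7, 8.83 and 12.2 CPM on high salt and 15.5, 19.1, 7.17 and 13.7 CPM on low salt. The kidney groups were apart and the heart groups overlapped, with a difference of -2.71 ± 0.48 (adjusted p = 0.028), or 6.53-fold. Ptafr, its receptor, had kidney levels of 6.86, 6.52, 7.8 and 11 CPM on high salt and 2.19, 2.23, 3.39 and 2.8 CPM on low salt, and heart levels of 4.6 to 6.43 and 3.41 to 5.38 CPM. Its kidney groups did not overlap and its difference was -1.43 ± 0.24 (adjusted p = 0.0231). Without heart high salt replicate 2 the adjusted p-values were 0.0776 for Pla2g7 and 0.0578 for Ptafr. The call of Ptafr was also lost without heart low salt replicate 4 (0.0518), and that of Pla2g7 in 6 of 16 fits in all. The other 16 genes of the prostaglandin and platelet-activating factor list did not pass, and the list median was 0.09 with 9 of 18 differences positive.

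For a smaller set of genes the heart carried the difference. Fzd1, a receptor of Wnt ligands, had heart levels of 150, 149, 230 and 194 CPM on high salt and 80.5, 90, 127 and 124 CPM on low salt. In kidney it had 125, 136, 89.3 and 101 CPM on high salt and 160, 130, 139 and 124 CPM on low salt. Each low-salt heart library was below each high-salt one, and the kidney groups overlapped. The responses were -0.79 ± 0.09 in heart and 0.31 ± 0.09 in kidney, a difference of 1.1 ± 0.13 (adjusted p = 0.0103). Ap1s3, a small subunit of the AP-1 clathrin adaptor, had heart levels of 20.1, 29.9, 18.3 and 18.3 CPM on high salt and 14.1, 14.6, 7.21 and 7.55 CPM on low salt. In kidney it had 41.1 to 44.7 CPM on high salt and 47.1 to 56.6 CPM on low salt. The groups were apart in both tissues and in opposite directions, with a difference of 1.36 ± 0.17 (adjusted p = 0.0103).

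Ankrd1, a stretch-induced protein of the sarcomere and nucleus, had heart levels of 4740, 5650, 6040 and 10100 CPM on high salt and 2980, 2840, 3550 and 2980 CPM on low salt. In kidney it had 5.33 to 7.4 CPM on high salt and 6.66 to 11 CPM on low salt. The heart groups did not overlap, with a response of -1.07 ± 0.18, and the difference was 1.38 ± 0.25 (adjusted p = 0.0303; 0.0791 without heart high salt replicate 2, with 9 of 16 leave-one-out fits passing). It was the only one of the 13 fetal and stretch-induced genes tested that passed, all 13 had a positive difference, and none had a positive heart response. Most of this list could not be compared, since its members are near 0 in kidney. Nppa, the atrial natriuretic peptide, was at 0 counts in 7 of 8 kidney libraries, and stood in heart at 362, 140, 415 and 3460 CPM on high salt and 62.2, 95.1, 23.2 and 279 CPM on low salt. Nppa is also a marker of atrial cardiomyocytes. Of the other atrial markers, Myl7 and Myl4 had heart responses of -1.29 ± 0.69 and -0.34 ± 0.22, and Sln had 1.61 ± 0.76. The part of atrial tissue in the Nppa values was not tested. Acta1, skeletal alpha-actin, stood in heart at 3940, 3480, 7950 and 7170 CPM on high salt and 1190, 1520, 2380 and 2400 CPM on low salt, without overlap. Rcan1, a calcineurin-induced regulator, stood in heart at 590, 671, 655 and 984 CPM on high salt and 389, 413, 432 and 439 CPM on low salt, without overlap, and had a difference of 0.51 ± 0.18 (adjusted p = 0.2).

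In the extracellular matrix list, Thbs1, the matrix glycoprotein thrombospondin 1, passed among 23 members. In heart it had 6.9, 12.8, 21.5 and 30.8 CPM on high salt and 4.29, 5.44, 11.5 and 11.2 CPM on low salt. In kidney it had 181, 155, 220 and 338 CPM on high salt and 295, 211, 282 and 286 CPM on low salt. The heart groups overlapped across batches and were apart within each batch, and the difference was 1.43 ± 0.29 (adjusted p = 0.0448), with 2 of 16 leave-one-out fits passing and adjusted p-values up to 0.0961. The list median was 0.36, and 20 of 23 differences were positive, against 52.8% of all genes tested. No member had a positive heart response, against 9296 of the 19408 genes tested. The collagens Col1a1, Col3a1 and Col4a1 had heart responses of -0.39 ± 0.31, -0.31 ± 0.33 and -0.33 ± 0.13 and did not pass. Ccn2, or connective tissue growth factor, had -1.02 ± 0.27 in heart and 0.06 ± 0.27 in kidney (difference 1.08 ± 0.39, adjusted p = 0.209). Summed fibroblast markers were 865 to 1140 CPM in heart on high salt and 623 to 1140 CPM on low salt; their part in the list's values was not tested.

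Ulk1 had a lower response in kidney that the heart carried, and Frat1 changed in both tissues. Ulk1, the kinase that starts autophagy, had heart levels of 146, 159, 140 and 110 CPM on high salt and 243, 214, 197 and 207 CPM on low salt. In kidney it had 130, 156, 153 and 164 CPM on high salt and 121, 133, 129 and 134 CPM on low salt. The heart groups were apart and the kidney groups overlapped, with a difference of -0.86 ± 0.12 (adjusted p = 0.0129). Frat1, which binds the kinase GSK3 in Wnt signalling, had heart levels of 7.71, 7.54, 5.84 and 4.86 CPM on high salt and 12.6, 12.4, 10.6 and 10 CPM on low salt. In kidney it had 3.7, 4.83, 5.99 and 4.02 CPM on high salt and 2.59, 2.89, 2.68 and 3.59 CPM on low salt. The groups were apart in both tissues, in opposite directions, with a difference of -1.48 ± 0.22 (adjusted p = 0.016). Fbxo31, an F-box protein of a ubiquitin ligase, had a heart response of 0.49 ± 0.07 and a kidney response of -0.14 ± 0.07 (difference -0.64 ± 0.09, adjusted p = 0.0172).

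Ulk1 was the member of the FoxO, autophagy and atrophy list that passed, 0 were higher, and 2 of 14 differences were positive. The list median was -0.22, and 13 of 14 members had a positive heart response, with 8 of 14 positive in kidney. Pik3r1, a regulatory subunit of PI 3-kinase, had 0.5 ± 0.06 in heart and 0.12 ± 0.06 in kidney, the groups being apart in both tissues (difference -0.38 ± 0.09, adjusted p = 0.0639). The atrophy ligases Fbxo32 and Trim63 had differences of -0.34 ± 0.15 and -0.07 ± 0.26. All 22 fatty acid oxidation genes had a positive heart response and 12 a positive kidney response, but none passed in either direction and the list median was -0.12. Acadm, medium-chain acyl-CoA dehydrogenase, had 0.25 ± 0.05 in heart and 0.23 ± 0.05 in kidney, without overlap in either tissue, and the difference was -0.02 ± 0.08. The 25 nuclear subunits of oxidative phosphorylation had a median of -0.03 and no call.

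Glycolysis and hypoxia genes had 1 lower call among 23, a median of -0.26 and 4 positive differences. The call was Bnip3, a hypoxia-induced mitophagy receptor, with kidney levels of 95.3, 148, 81.5 and 64.4 CPM on high salt and 53.9, 61.2, 50.9 and 63.3 CPM on low salt. Its heart levels were 307, 276, 262 and 318 CPM on high salt and 426, 447, 305 and 396 CPM on low salt. The kidney groups did not overlap by a narrow margin and the heart groups overlapped; the difference was -1.15 ± 0.25 (adjusted p = 0.0497), and it passed in 3 of 16 leave-one-out fits, with adjusted p-values up to 0.106. Among the 27 proteasome subunits, Psmc5, an ATPase of the regulatory particle, had 73.1 to 74.2 CPM in kidney on high salt and 58 to 64.4 CPM on low salt, and 159 to 182 and 187 to 213 CPM in heart. Its groups were apart in both tissues and the difference was small, -0.44 ± 0.09 (adjusted p = 0.0427), with 2 of 16 leave-one-out fits passing and adjusted p-values up to 0.0865. The proteasome list had 0 higher calls, 5 positive differences and a median of -0.17. The 14 heat shock chaperones had no call and a median of -0.25, with Cryab, alpha-B-crystallin, at -0.58 ± 0.13 (adjusted p = 0.0629).

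Rrad, a small GTPase that inhibits the L-type Ca channel, had kidney levels of 30.6, 42.3, 54.7 and 71.3 CPM on high salt and 85.4, 75, 116 and 115 CPM on low salt. Heart levels of the gene were 600, 509, 538 and 534 CPM on high salt and 491, 406, 473 and 452 CPM on low salt. The groups were apart in both tissues, higher on low salt in kidney and lower in heart, and the difference was 1.27 ± 0.16 (adjusted p = 0.0103). It was the member of the 10 cardiac Ca handling genes that passed; the list median was 0.22. Among 20 genes of cholesterol synthesis under SREBP, 16 differences were positive and the median was 0.19. Srebf2, the SREBP gene of that pathway, and Hmgcs1, an early enzyme of it, had 0.57 ± 0.16 and 0.7 ± 0.19 (adjusted p = 0.115 and 0.102).

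The naming rule gave 5 further genes, for which the change was larger in kidney. Plscr2, a phospholipid scramblase, and Znf431l1, a zinc finger gene, had higher responses in kidney by 0.61 ± 0.08 and 1.02 ± 0.13 (adjusted p = 0.0103 each). Plscr2 stood at 48 to 60.5 CPM in kidney on high salt and 68.6 to 88.3 CPM on low salt, and Znf431l1 at 95.6 to 130 and 178 to 192 CPM. Sphkap, an anchoring protein of protein kinase A, stood at 3.74, 4.94, 5.99 and 3.36 CPM in kidney on high salt and 0.871, 0.791, 0.573 and 1.21 CPM on low salt. Its heart levels were 47.6 to 120 and 52.7 to 81.2 CPM, and its difference was -2.1 ± 0.35 (adjusted p = 0.0231; 0.0556 without heart high salt replicate 2 and 0.0521 without kidney high salt replicate 2). Myrip, which links secretory organelles to myosin, stood at 16.8, 14.1, 5.63 and 4.17 CPM in kidney on high salt and 3.28, 3.58, 1.56 and 3.17 CPM on low salt. The kidney high-salt libraries split by batch, and the kidney groups did not overlap. Its heart groups were apart too, at 19.5 to 23.2 and 23.6 to 30.4 CPM, and the difference was -1.92 ± 0.32 (adjusted p = 0.0231; 0.0556 without heart high salt replicate 2). Smco1 passed with -2.97 ± 0.42 (adjusted p = 0.0147) on kidney levels of 0.109 to 0.152 CPM on high salt and at most 0.0229 CPM on low salt, a few counts in each library, so its size is uncertain. Outside the rule, and named after their values were seen, the receptors Notch1 and Notch2 had differences of 0.87 ± 0.13 and 0.6 ± 0.12 (adjusted p = 0.0158 and 0.0373).

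**Figure D4:**
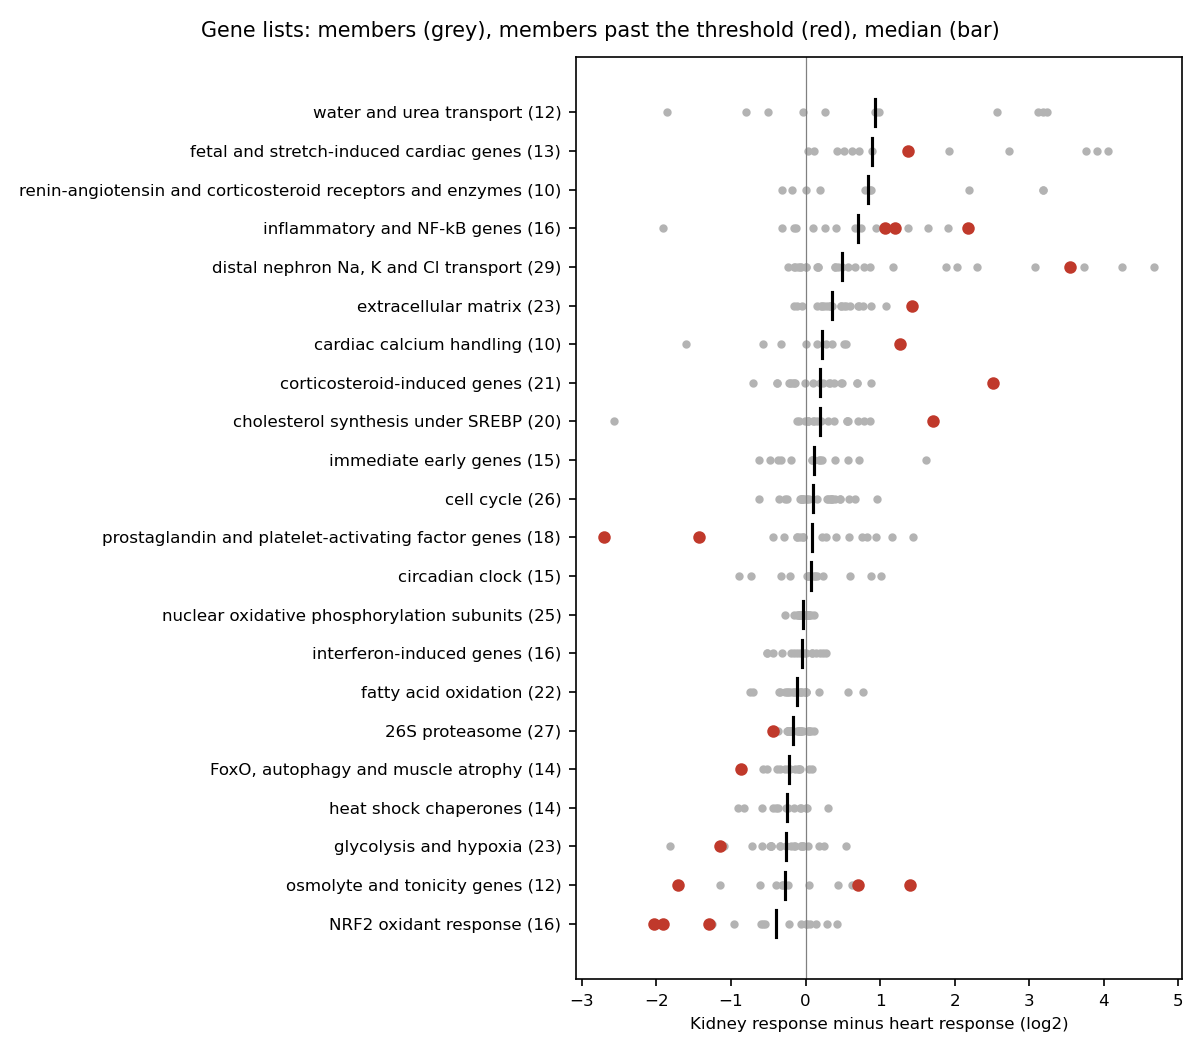
Difference of responses (kidney minus heart, log2, x axis) for every tested member of the 22 gene lists (number tested in parentheses), with members past the threshold in red and a bar at each median. List medians ran from -0.39 for the NRF2 list to 0.93 for water and urea transport, and called members fall on both sides of 0 in the osmolyte list alone.

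The number of calls depended on single libraries. All 161 genes kept their sign in each of the 16 fits that left out 1 library, but only 19 passed in all of them. The genes were selected on these same libraries, which largely fixes their signs in advance, so the kept signs support nothing further. Of the 28 named genes past the threshold, 14 passed in all: Fzd1, Ap1s3, Rrad, Zbtb16, Znf431l1, Plscr2, Akr1b1, Ulk1, Me1, Smco1, Frat1, Fbxo31, Srxn1 and Nfat5. The fewest calls, 23, remained without heart high salt replicate 2, and 15 of the 28 named genes were among those that passed there. With other libraries left out the calls in both directions were 36 without heart low salt replicate 4, 47 without heart high salt replicate 3, 49 without heart low salt replicate 1, 53 without kidney high salt replicate 2 or 3, 56 without kidney low salt replicate 3, 75 without kidney high salt replicate 1, 96 without heart low salt replicate 2, 103 without heart high salt replicate 4 and 107 without kidney low salt replicate 4. The rest ran from 113 to 194.

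**Figure D5:**
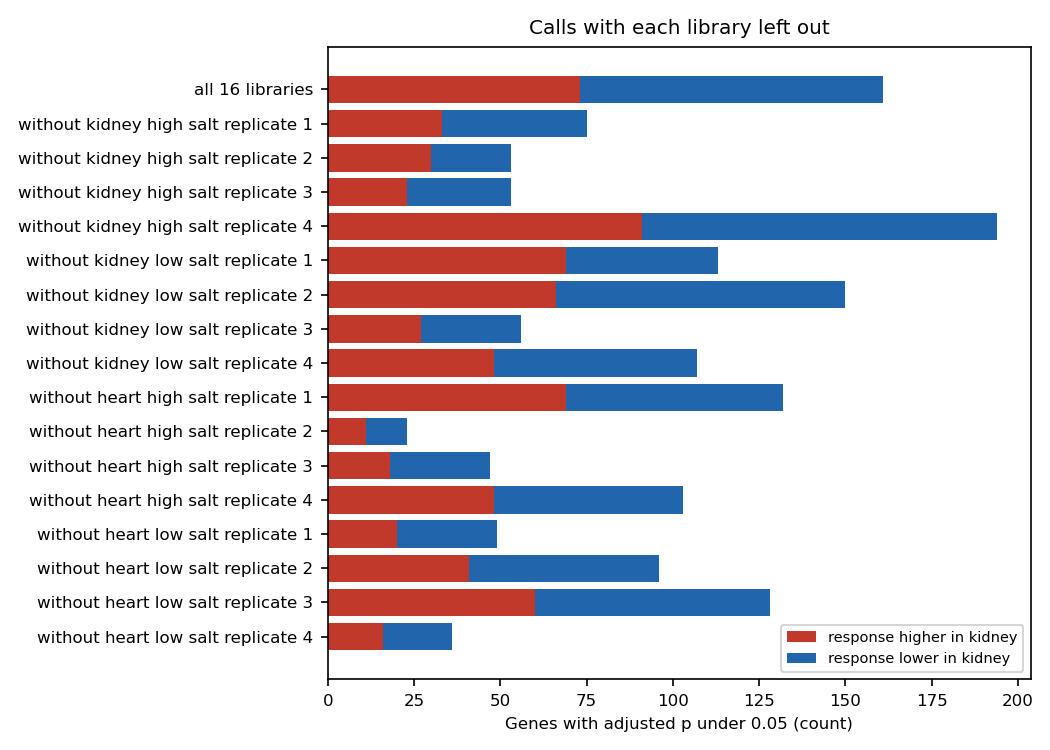
Number of genes with an adjusted p under 0.05 (x axis, count) with all 16 libraries and with each library left out in turn, with responses higher in kidney in red and lower in kidney in blue. All 16 libraries gave 161 calls, and leaving out heart high salt replicate 2 gave 23.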

How the data were processed

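Of the 24 libraries of the series, 16 were used, and the 8 of the aldosterone experiment were left out because the comparison does not involve them. Per the labels' protocols, a stranded mRNA kit was used and sequencing ran for 50 cycles from one end. Per the submitters' processing notes, the authors used bcl2fastq 2.19, Trimmomatic, Salmon and MultiQC; the sources used here give no settings, genome build or annotation. The values the authors deposited are expected counts per gene, estimated and not whole, in a separate table for each tissue. All 36856 symbols matched a RefSeq table of build GRCr8.

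The expected counts of both tissues were joined by symbol and rounded to whole numbers. Low genes were removed with filterByExpr (minimum count 10), and libraries were scaled by TMM over the 16 libraries, with edgeR 4.0.16 in R 4.3.3. The quasi-likelihood test took the low-minus-high change in kidney minus that in heart, with one intercept per tissue and batch. P-values were adjusted by Benjamini-Hochberg over all 19408 genes, called under 0.05 whatever their fold. The common biological coefficient of variation was 20.5% in kidney and 19.8% in heart. Each of 24 pairs of libraries within a group differed by more than sampling noise (chi-square averaged over genes, 18.8 to 96.6 across the pairs).

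Alternatives were DESeq2 1.42.0, voom of limma 3.58.1, other scalings and filters, no batch term, replicate blocks, single batches and each library left out. Counts were simulated for this comparison over 19408 genes. Differences were set in kidney on low salt only, in genes with a mean of 1 CPM or more in both tissues. Of such genes with a 1.5-, 2- and 4-fold difference, 25.4%, 64.2% and 95.5% were recovered, with 12 false calls among 135. Recovery below that level, and kidney transcripts in single heart libraries, were not simulated.

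Named genes are up to 6 per direction with the smallest p, up to 4 per direction with the largest difference at 1 CPM or more in both tissues, up to 2 per list of those past the threshold, and a fixed set of 16 genes whatever their p. That gave 39 genes, of which 28 passed; 1 of the 28 is not reported here. The members, the 22 gene lists and the rule were chosen with earlier results of these data known. Promoter windows came from RefSeq (GRCr8), and 15638 of the tested genes had one.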

Additional observations from a re-analysis of the deposited data

Results flagged for a closer look

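The low-salt response differed between kidney and heart, by the test of the difference itself, for the named genes that follow. The log2 difference (kidney minus heart) was 1.1 for Fzd1, 1.36 for Ap1s3, 1.27 for Rrad, 2.51 for Zbtb16, 1.02 for Znf431l1, 0.61 for Plscr2, 2.18 for Ltb, 1.98 for Tnfrsf14, 3.55 for Scnn1a, 0.7 for Nfat5, 1.43 for Thbs1, 1.38 for Ankrd1, 1.2 for Tnfaip3 and 1.07 for Relb. It was -1.71 for Akr1b1, -0.86 for Ulk1, -1.3 for Me1, -2.97 for Smco1, -1.48 for Frat1, -0.64 for Fbxo31, -2.71 for Pla2g7, -2.1 for Sphkap, -2.03 for Srxn1, -1.92 for Myrip, -1.15 for Bnip3, -1.43 for Ptafr and -0.44 for Psmc5.

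A single library stood apart from the other 3 of its group, by Dixon's test, in 17 of 156 groups of named genes, where chance flags about 1 in 20. That rate holds for independent, normally distributed values. Each group mixes 2 batches, the same libraries recur over genes, and some groups lie near 0 counts, such as Nppa in kidney and Scnn1b in heart. The excess over chance therefore cannot be interpreted. Heart high salt replicate 2 was the high one for Hsd11b2 (8.59 CPM), Scnn1g (1.18 CPM), Scnn1b (0.833 CPM) and Ap1s3 (29.9 CPM). In the same tissue on high salt, replicate 3 was high for Zbtb16 (109 CPM) and low for Pla2g7 (8.83 CPM), and replicate 4 was high for Nppa (3460 CPM). On low salt in heart, replicate 1 was low for Ptafr (3.41 CPM), and replicate 2 was high for Slc14a2 (0.604 CPM) and Scnn1b (0.0504 CPM). In kidney on high salt, replicate 1 was high for Ap1s3 (44.7 CPM) and replicate 4 for Ltb (8.66 CPM). In kidney on low salt, replicate 2 was high for Srxn1 (25.9 CPM) and Nppa (0.0233 CPM) and low for Thbs1 (211 CPM) and Smco1 (0 CPM), and replicate 1 was high for Ankrd1 (11 CPM).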

How the results depend on the processing

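With 73 higher and 88 lower calls as reported, DESeq2 gave 338 and 483, and fewer came from voom (42 and 64). Calls numbered 92 and 111 with a filter of 1 CPM in 4 libraries, 137 and 170 with a mean of 1 CPM in both tissues, and 58 and 57 with no filter. Without genes below 5% of their level in the other tissue, a choice made after seeing the data, they numbered 93 and 136. They dropped to 6 and 8 without a batch term, 1 and 0 in batch 1 alone, 6 and 1 in batch 2 alone, and ran from 11 to 91 higher and from 12 to 103 lower with 1 library left out. DESeq2 size factors gave 63 and 93, upper quartile scaling 79 and 74 and TMM within each tissue 69 and 90. The cause of these shifts was not tested.

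The replicate numbers were not taken to pair libraries. Same-numbered libraries of kidney and heart correlated at 0.00754 to 0.297, 6 of 8 pairs being over 0.1, and 13 of 16 libraries correlated best with their own number. A replicate block over tissues left 15 higher and 15 lower calls, and a replicate block within tissue 9 and 7. Of the 28 named genes that passed as reported, 13 and 9 passed with these blocks. With the block over tissues, the adjusted p was 0.0726 for Nfat5, 0.0729 for Srxn1, 0.0542 for Ulk1, Znf431l1 and Scnn1a, 0.0669 for Fbxo31 and 0.0657 for Smco1.

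All 161 genes kept their sign in each alternative in which they were tested, which their selection on these same libraries favours. Signs changed for genes that did not pass: Scnn1g ran from -0.374 (without heart high salt replicate 2) to 3.92 with 1 library left out, Tsc22d3 was 0.184 in batch 1 alone, and Hsd11b2 and Slc14a2 were -0.663 and -0.575 in batch 2 alone. Nr3c2, at 0 as reported, was 0.0132 with upper quartile scaling, 0.00375 with no filter, 0.00625 and 0.0101 with the CPM filters, 0.00177 with the 5% filter, 0.0834 in batch 2 alone and -0.107 to 0.0744 with 1 library left out. The list medians of water and urea transport (-0.5 to 1.47), the cell cycle (-0.61 to 0.89), osmolyte and tonicity genes (-0.36 to 0.1), cardiac calcium handling (-0.14 to 0.55), fatty acid oxidation (-0.26 to 0.04), immediate early genes (-0.04 to 0.18), interferon-induced genes (-0.21 to 0.12) and prostaglandin and platelet-activating factor genes (-0.03 to 0.25) changed sign between alternatives. At 18 to 52 counts per CPM, responses of genes below 1 CPM in a tissue, such as Scnn1a in heart and Smco1 in kidney, carry large counting error.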
